A study of Mus musculus with 12 samples.

Results

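The response to retinoic acid (RA) of F9 cells whose labels give a knockout of Rarg, which encodes RAR gamma, was measured on 6 of the 12 arrays of the series, and the members of the comparison are these arrays by their labels. F9 is a teratocarcinoma cell line from the mouse, and RA makes its stem cells differentiate along the endoderm lineage. The 3 arrays called KO_RA held RNA of knockout cells kept for 24 h in 1 µM RA, and the 3 called KO_vehicle held RNA of knockout cells kept for 24 h in ethanol, the vehicle of RA. The 6 arrays of wild-type F9 cells in the same treatments (WT_vehicle and WT_RA, 3 each) shared the estimate of the spread and served for the test of a difference between genotypes. All cells grew in the same serum-supplemented medium. The labels do not give the knockout allele, the number of clones, or whether replicate arrays stem from independent cultures. The p-values therefore cover the array-to-array spread, which may be technical.

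RA enters the nucleus and binds RAR proteins, which sit on DNA as partners of RXR proteins at paired half-sites called RA response elements. Without RA the pair holds corepressors, and with RA it recruits coactivators. The RAR family has the members alpha, beta and gamma, and the genes for RAR beta and for the RA-degrading enzyme Cyp26a1 are themselves classical targets. In F9 cells and in embryos RA also switches on the Hox genes at the 3′ side of their clusters, and RAR gamma is known as a main mediator of RA effects in F9 cells.

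Each array went through 1 of 3 fluidics runs of 4 arrays, and each run held 1 array of every group, so the run was a block in the fit and the change within each run is given where it matters. Run 1 held all arrays numbered replicate 3, whose titles carry letter codes, run 2 the arrays numbered replicate 1 and run 3 those numbered replicate 2. KO_vehicle replicate 3 had a median signal of 143 with raised dim probe sets, against 71.3 to 94.9 on the other 11 arrays. The median RA change over all probe sets was -0.44 in run 1 against 0.06 in run 2 and -0.01 in run 3, on the log2 scale used for all changes here (log2 of signal + 16). Among the brightest 11259 probe sets the run 1 median was 0.13 and among the dimmest 11260 it was -1.19. KO_vehicle replicate 3 and KO_RA replicate 1 also waited longest between hybridization and scan, 316 and 238 min against 13 to 59 min for the other arrays, and the part of this wait in any result was not tested. Rarg gave signals of 1716, 1672 and 1521 in KO_vehicle replicates 1, 2 and 3 and of 1549.6, 1495 and 1026 in KO_RA, a change of -0.29 (SE 0.168, limma adjusted p = 0.687), and since the place of its probes with respect to the disrupted sequence is not known here, this signal does not check the genotype. Stem cell genes were bright on all 6 knockout arrays, with signals of 12219, 14928 and 16376 in KO_vehicle and 12304, 10843 and 19002 in KO_RA for Pou5f1, the core pluripotency factor.

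In knockout cells many more genes were called up than down under RA. Called or not, 2547 genes were higher and 2777 lower under RA in all 3 runs. Of 18193 genes, each represented by its brightest probe set, 90 were called at an adjusted p under 0.05 (0.495%), 74 up (0.407%) and 16 down (0.0879%). Over all 45037 probe sets 136 were called (0.302%), 112 up (0.249%) and 24 down (0.0533%). The median change was 1.05 among the genes that rose and -0.87 among those that fell, and 39 rises but 4 falls were at least 1 on the log2 scale. The KO_RA arrays lay wholly above the KO_vehicle arrays for 67 of the 74 and wholly below them for 14 of the 16, while 10.9% of all genes had no overlap between these arrays in either direction. Of the brightest 11259 probe sets by mean signal over the 12 arrays 86 rose and 19 fell, of the next 11259 in order of signal 26 rose and 4 fell, and of all dimmer ones 0 rose and 1 fell. Centring each array on its own median, which moved the median change over all genes from -0.05 to 0.20, left 71 called probe sets, 69 up and 2 down.

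Without KO_vehicle replicate 3 the fit called 109 probe sets (0.242%), 92 up and 17 down, and 76 genes (0.418%). Of the 90 genes, 51 that rose and 8 that fell kept their call without this array, all 90 kept their direction, and 14 rises and 3 falls were gained. Among the genes gained were Hoxa3 and Dleu7 upwards and the stem cell genes Lefty2 and Utf1 downwards, named after their values were seen. Leaving out KO_RA replicate 2 gave 74 called probe sets, KO_vehicle replicate 2 gave 84 and KO_RA replicate 1 gave 86, while leaving out WT_vehicle replicate 3 gave 239. In all 6 fits that each left out 1 knockout array, 39 genes kept their call, 37 up and 2 down. Without the run block 36 probe sets were called (0.0799%), 34 up and 2 down, among them those of 27 of the 90 genes.

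**Figure D1:**
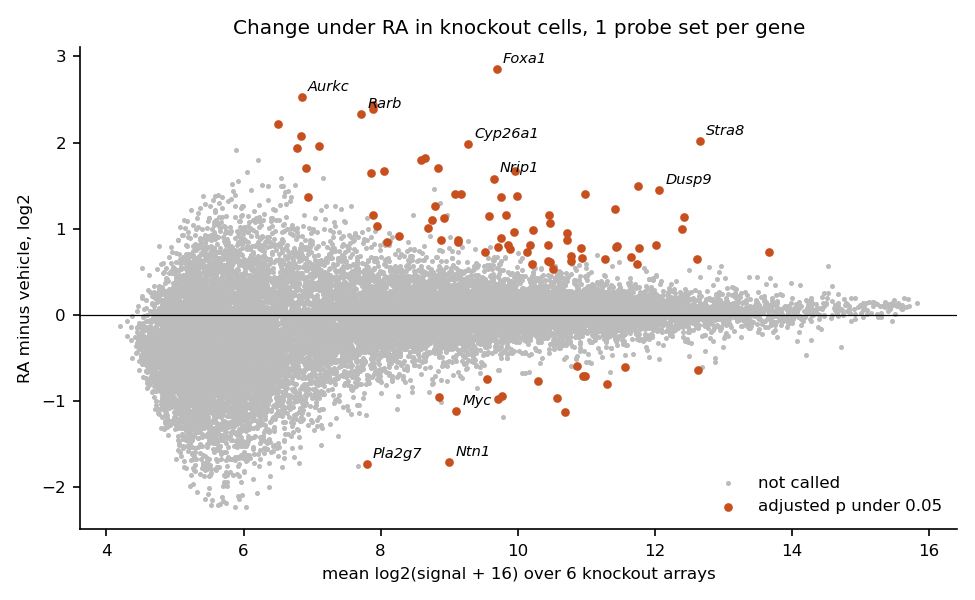
Each point is 1 gene in knockout cells, with its mean log2(signal + 16) over the 6 knockout arrays on the x axis and its change under RA (log2) on the y axis. Orange points are the 90 called genes, 74 above and 16 below the line at 0, and they lie among genes of middle and high signal while the widest scatter of grey points is at low signal.

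Several classical RA targets rose in knockout cells. Of 37 measured genes in the list of RA targets 10 rose and 0 fell, where 0.407% of all genes rose, and the median change was 0.61 against -0.05 over all genes. That median was 0.16, 0.95 and 1.02 in runs 1, 2 and 3 and 0.98 without KO_vehicle replicate 3, where 11 of the 37 rose. The list was chosen with earlier results of these data known. Its rises include the markers Stra8, Rarb, Nrip1 and Foxa1, so these shares are a description and no test. Stra8, which germ cells need to enter meiosis, gave signals of 3071, 2958 and 3594 in KO_vehicle replicates 1, 2 and 3 and of 13635, 12424 and 12864 in KO_RA. All RA arrays stood far above all vehicle arrays, and the change was 2.01 (SE 0.126, limma adjusted p = 4.21e-09). Rarb, the gene of RAR beta, was near background in vehicle, at 87.7, 66.8 and 80.3, and reached 486, 554 and 353 under RA, a change of 2.33 (SE 0.203, limma adjusted p = 6.32e-07). Nrip1, whose protein is an RA-inducible corepressor of nuclear receptors, went from 476, 457 and 413 to 1460.2, 1614 and 1099, a change of 1.58 (SE 0.136, limma adjusted p = 5.52e-07). Foxa1, a pioneer transcription factor of endoderm, had the largest rise of the 90 called genes and went from 445, 229 and 242 to 2773, 3082 and 1263, a change of 2.86 (SE 0.214, limma adjusted p = 7.44e-08). Its lowest RA value, on KO_RA replicate 3, was still above every vehicle value, and these 4 genes kept their call without the run block and in all 6 fits that left out a knockout array. Another 3 probe sets of Nrip1 were above 1 on the log2 scale, 2 of them called, and none of its probe sets was called downwards.

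**Figure D2:**
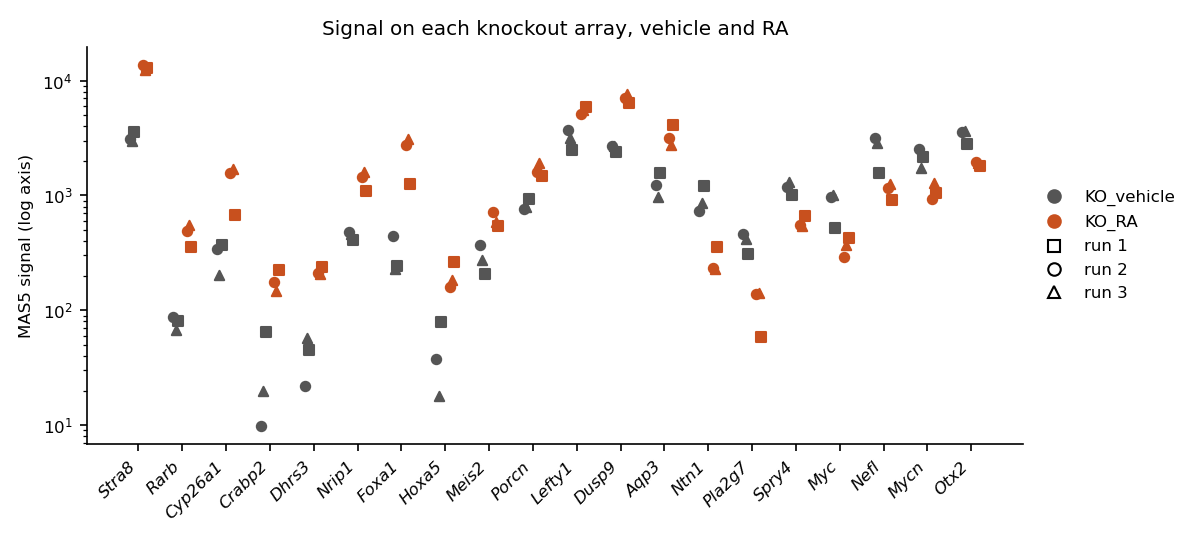
MAS5 signal (log axis) on each of the 6 knockout arrays for genes called in the RA comparison, grey for vehicle and orange for RA, with the marker shape giving the run. The groups do not overlap for any gene shown, Stra8 is at 12424 or more on every RA array, and Cyp26a1 and Foxa1 have their lowest RA signal in run 1.

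Some of the RA targets that rose handle or bind RA itself. Of 34 measured retinoid enzymes, binding proteins and receptors, 4 rose and 0 fell, where 0.407% of all genes rose. These 4, Rarb, Cyp26a1, Crabp2 and Dhrs3, were all among the RA targets that rose, so they are not a separate group. The list median was -0.11, and it was -0.0037 without KO_vehicle replicate 3, 0.02 after quantile normalization and 0.14 with arrays centred on their medians. Cyp26a1, which degrades RA, went from 343, 202 and 369 to 1576, 1699 and 672, a change of 1.99 (SE 0.239, limma adjusted p = 8.17e-05). Its rise was unequal between runs, at 0.84, 2.15 and 2.97 in runs 1, 2 and 3, since KO_RA replicate 3 reached less than the other RA arrays. Crabp2, which carries RA to its receptors, was not above background in KO_vehicle at 9.79, 19.7 and 64.5 and reached 175, 146 and 222, so it rose at least 1.57-fold (adjusted p = 0.000852 by limma). Dhrs3, which turns retinaldehyde back to retinol, was likewise below background in vehicle at 21.7, 57.6 and 45.4 and reached 209.7, 208 and 239, at least 1.89-fold higher (adjusted p = 0.00334 by limma). The bounds set the bright arrays against the level under which 95% of probe sets for odorant, pheromone and taste receptors lay on each vehicle array, which was 67.1, 76.4 and 234. The call of Dhrs3 ended without KO_RA replicate 1 (adjusted p up to 0.0721) and without the run block (adjusted p = 0.0523), while those of Rarb, Cyp26a1 and Crabp2 held in these fits.

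The other members of the retinoid list did not pass. Rara, the gene of RAR alpha, stayed near its vehicle level with 531, 448 and 549 in KO_vehicle and 572, 506 and 547 in KO_RA (change 0.09, adjusted p = 0.92 by limma). Rxrb, an RXR partner gene, gave 1143, 862 and 899.8 and 793, 855 and 924 (-0.16, adjusted p = 0.809 by limma), and the groups overlapped for both receptors. Stra6, which carries retinol into cells, gave 13.7, 21.9 and 124 in vehicle and 191, 93.1 and 172 under RA, with overlap through KO_vehicle replicate 3 (1.59, adjusted p = 0.236 by limma). Cyp26b1, a second RA-degrading enzyme, gave 52.7, 19.3 and 74.5 and 76.8, 84.8 and 34, values near background in both groups (0.36, adjusted p = 0.884 by limma).

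Promoter windows of the rising genes were searched for RA response elements because 2 of the strongest retinoid rises, Rarb and Cyp26a1, are known to carry them. Windows ran from 250 bases before to 50 after each RefSeq start (GRCm38.p6), and the motif named DR5, a direct repeat of RAR half-sites with 5 bases between, was searched on both strands. Windows were on hand for 52 of the 74 genes that rose, and a DR5 match lay in 2 of these genes, Rarb and Cyp26a1. A match lay in 11 of 14452 measured genes with a window (0.0761%), Rarb and Cyp26a1 among them. Both were known carriers that prompted the search, so setting these shares side by side is no test. The windows are shown 5′ to 3′ on the strand of the gene, with the DR5 match in capitals. The Rarb window is chr14:16575427-16575726 on the minus strand, with the match from 53 to 37 bases before the start on the strand of the gene. The Cyp26a1 window is chr19:37697558-37697857 on the plus strand, with the match from 32 to 16 bases before the start on the opposite strand.
Rarb: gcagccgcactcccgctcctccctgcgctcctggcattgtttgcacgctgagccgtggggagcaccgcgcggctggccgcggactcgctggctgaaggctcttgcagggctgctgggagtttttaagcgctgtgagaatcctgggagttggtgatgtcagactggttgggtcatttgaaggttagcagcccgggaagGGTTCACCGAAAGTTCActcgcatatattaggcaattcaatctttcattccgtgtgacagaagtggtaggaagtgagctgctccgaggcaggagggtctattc
Cyp26a1: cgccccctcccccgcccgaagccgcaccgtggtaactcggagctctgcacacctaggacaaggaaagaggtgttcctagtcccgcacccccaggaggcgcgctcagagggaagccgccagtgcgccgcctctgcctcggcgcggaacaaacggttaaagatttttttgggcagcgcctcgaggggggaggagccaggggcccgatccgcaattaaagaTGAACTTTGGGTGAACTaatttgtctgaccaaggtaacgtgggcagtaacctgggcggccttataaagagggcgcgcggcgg
The repeats in both windows lie just upstream of the start. No DR5 match lay in the windows of Stra8, Foxa1, Nrip1, Dhrs3 or Hoxa5, which says only that these letters are absent from those windows. Repeats with 1 base between (DR1) were found in 0 and with 2 bases (DR2) in 0 of the 52 genes, against 0.256% and 0.0969% of measured genes. Of the 16 genes that fell 10 had a window, and 1 of these, Slc7a7, held a DR2 match, 0 a DR1 and 0 a DR5 match.

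Of the Hox genes and their partners 1 and 2 were called, where 0.495% of all genes were. Paralog groups 1 to 5, whose Hox genes pattern the hindbrain and neck, had 13 measured members, of which 1 rose, and the list median was 0.28, or 0.47 without KO_vehicle replicate 3, where 2 rose. The probe set kept for Hoxa5 was not above background in vehicle at 38, 17.8 and 79.8 and reached 161, 185 and 261, a rise of at least 1.73-fold (adjusted p = 0.000792 by limma). In that probe set the RA arrays lay above all vehicle arrays, and the call held in all 6 fits that left out a knockout array. The other probe set of Hoxa5 was above background on every knockout array, at 239, 211 and 930.0 in vehicle and 307, 274 and 188 under RA. Its change was -0.50 and was not called (adjusted p = 0.744 by limma), with -2.21 in run 1 but 0.34 and 0.36 in runs 2 and 3. The negative sign came from run 1, which held the value of 930.0 on KO_vehicle replicate 3. Without that array it was not called either (adjusted p = 0.884 by limma), so the call holds for 1 of its 2 probe sets. Hoxb5 gave 4.15, 16.1 and 27.4 in vehicle and 92.7, 96.3 and 107 under RA (1.91, adjusted p = 0.171 by limma). Hoxa3 gave 4.47, 8.49 and 87.8 and 89.9, 79.2 and 145 (1.66, adjusted p = 0.152 by limma), and without KO_vehicle replicate 3 it passed (adjusted p = 0.00676). Both were dim, and the vehicle value of replicate 3 lay among the RA values for Hoxa3 but not for Hoxb5, whose adjusted p was 0.165 without that array. Of 20 measured Hox genes of groups 6 to 13, which pattern the trunk, 0 were called by limma (1 at an unadjusted p under 0.05). Meis2, a homeodomain partner of Hox proteins, went from 367, 276 and 208 to 723, 581 and 547, a change of 1.10 (SE 0.177, limma adjusted p = 0.00248) with no overlap. Pbx2, another partner, rose by 0.79 (SE 0.139, limma adjusted p = 0.00682), and its call ended without KO_vehicle replicate 3 or KO_RA replicate 2 or 3 (adjusted p up to 0.0885). Without the run block neither passed (adjusted p = 0.113 for Meis2 and 0.0812 for Pbx2). These were the 2 called members of 13 measured Hox cofactors and Cdx genes, whose median was 0.01, and 0.45 without KO_vehicle replicate 3, where 1 was called.

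The strongest single rise belonged to a probe set that the annotation used here leaves unnamed. Its signal was 119, 69.2 and 78.0 in KO_vehicle and 1491, 1195 and 1462 in KO_RA, a change of 3.76 (SE 0.147, limma adjusted p = 5.23e-13). The call held in all 6 fits without a knockout array, and the change was 3.98, 3.49 and 3.83 in runs 1, 2 and 3. Of the called probe sets, 11 had no single gene symbol, 7 of them up.

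Several bright genes outside the retinoid pathway rose with little spread in the probe set kept for each. Dusp9, a phosphatase that switches off ERK kinases, went from 2714, 2668 and 2368 to 7105, 7703 and 6407, a change of 1.45 (SE 0.124, limma adjusted p = 5.52e-07). Grasp, a scaffold protein of the synapse and of membrane traffic, went from 1976, 2319.8 and 1832 to 5905, 5917 and 5488, a change of 1.50 (SE 0.133, limma adjusted p = 8.2e-07). Aqp3, a water and glycerol channel, went from 1231, 964 and 1560.5 to 3191, 2734 and 4069, a change of 1.41 (SE 0.131, limma adjusted p = 1.74e-06). In the probe sets kept for these 3 genes the arrays of a group lay close together. The changes in the 3 runs spanned 1.38 to 1.52, 1.34 to 1.57 and 1.36 to 1.49, in the same order. Other called probe sets of Aqp3 varied more between runs, from 1.63 to 2.74 and from 0.71 to 2.30. For Grasp another called probe set ran from 0.77 to 2.04. Aqp3 and Grasp each also had a dimmer probe set that was not called. Dcaf12l1 went from 672, 776 and 299.7 to 1835, 1959 and 1519, with the lowest vehicle value on replicate 3, a change of 1.68 (SE 0.171, limma adjusted p = 7.44e-06). Nudt4, a diphosphoinositol phosphate hydrolase, rose by 1.00 (SE 0.138, limma adjusted p = 0.000425) from a high signal of 5056, 4799 and 2254. Each of these 5 kept its call in every fit that left out a knockout array, and all but Nudt4 (adjusted p = 0.423) passed without the run block. Basp1, a membrane-bound growth cone protein, was the brightest of the named rises and went from 10080.0, 11280.0 and 8847 to 17280.0, 18249 and 14743 (0.74, adjusted p = 0.00591 by limma). It lost its call without KO_vehicle replicate 1 or 3 or KO_RA replicate 2 (adjusted p up to 0.0801). Maged1, a MAGE family adaptor, rose by 0.65 (adjusted p = 0.0128 by limma) and lost its call without KO_vehicle replicate 1 or 3 or KO_RA replicate 1 or 2 (adjusted p up to 0.144).

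Further large rises came from genes of varied roles. Adgra2, an adhesion receptor of brain vessels, went from 102, 161 and 34.2 to 586, 547 and 472, a change of 2.43 (SE 0.307, limma adjusted p = 0.000141). Csn3, which encodes the milk protein kappa casein, went from 170.0, 86 and 43 to 609, 751 and 319, a change of 2.39 (SE 0.342, limma adjusted p = 0.000679). Both vehicle groups were dim and spread, and no RA array fell among them. Actn2, the alpha actinin of muscle, rose from 141, 178 and 275 to 682, 526 and 967, a change of 1.80 (SE 0.242, limma adjusted p = 0.000329). Tmtc1, a mannosyltransferase of the endoplasmic reticulum, rose from 259, 303 and 169 to 887, 838 and 724, a change of 1.71 (SE 0.193, limma adjusted p = 3.46e-05). Cidea, a lipid droplet protein of fat cells, changed by 1.68, Camk1, a calcium-dependent kinase, by 1.65 and Tnfrsf19, a receptor of the tumour necrosis factor family, by 1.40 (limma adjusted p = 0.000852, 0.000746 and 0.000193). By their brightest probe sets all 7 kept their call in every fit that left out a knockout array. Dimmer probe sets of Tnfrsf19 changed by 0.58 and 0.45 and were not called (limma adjusted p = 0.619 and 0.731). In run 1 their changes were -0.48 and -0.37. Without KO_vehicle replicate 3 the limma adjusted p values were 0.0434 and 0.523. Without the run block Actn2 and Tnfrsf19 did not pass (adjusted p = 0.0936 and 0.0602).

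Another set of large rises lost the call when single arrays were left out. Aurkc, an aurora kinase of meiosis, was not above background in vehicle at 24, 8.00 and 99.3 and reached 158, 217 and 509, at least 2.23-fold higher (adjusted p = 0.00905 by limma), and lost its call without KO_vehicle replicate 1 or 2 or KO_RA replicate 2 or 3 (adjusted p up to 0.152). Chrna5, a nicotinic receptor subunit, was below background in vehicle at 52.8, 47.6 and 52.6 and reached 168, 194 and 252, at least 1.75-fold higher (adjusted p = 0.0304 by limma), and lost its call without KO_vehicle replicate 1, 2 or 3 or KO_RA replicate 1, 2 or 3 (adjusted p up to 0.254). Prtg, a surface protein of the early embryo, rose by 1.97 (adjusted p = 0.0366 by limma), with 0.70, 1.73 and 3.47 in the runs, and lost its call without KO_vehicle replicate 1 or 2 or KO_RA replicate 1 or 2 (adjusted p up to 0.334). Atp1b2, a sodium pump subunit, rose by 1.82 (adjusted p = 0.0137 by limma), with 2.95, 1.56 and 0.95 in the runs, and lost its call without KO_vehicle replicate 3 or KO_RA replicate 1, 2 or 3 (adjusted p up to 0.14). For Prtg the widest change came from a vehicle value of 11.2 in replicate 2, and for Atp1b2 from one of 47.8 in replicate 3.

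Germ cell and signalling genes among the rises are given here as examples chosen after their values were seen. Kit, the receptor of stem cell factor, went from 630.1, 486 and 399 to 1018, 1189.7 and 1157 (1.15, adjusted p = 0.0006 by limma). A dimmer probe set of Kit, above background on every knockout array, changed by 0.24 and was not called (adjusted p = 0.854 by limma). Clgn, a chaperone of the testis, went from 664, 761 and 646 to 1734, 1583 and 911 (0.96, adjusted p = 0.00148 by limma). By their brightest probe sets Kit and Clgn had no overlap and kept their call in every fit that left out a knockout array, though without the run block Clgn did not (adjusted p = 0.229). Rhob, a small GTPase, rose by 0.80, Folr1, a folate receptor, by 0.77 and Cotl1, an actin-binding protein, by 1.37 (limma adjusted p = 0.00116, 0.00137 and 7.78e-06). In the fit without the run block Rhob passed, and Folr1 and Cotl1 did not (adjusted p = 0.0349, 0.0663 and 0.0523). Another probe set of Cotl1 was called up (1.53, adjusted p = 0.000307 by limma), and its remaining ones, with changes from 0.53 to 1.12, were not called. Greb1l, needed for kidney and urogenital development, rose by 1.27 (adjusted p = 0.0006 by limma). Dmrt1, a sex-determination factor of the testis, had a change of 0.87 (adjusted p = 0.0366 by limma), although its groups overlapped because both arrays of run 1 were higher than the rest, and it lost its call without KO_vehicle replicate 1 or 2 or KO_RA replicate 1, 2 or 3 (adjusted p up to 0.263). In the list of 29 measured germ cell and meiosis genes Stra8 was the only one called, where 0.495% of all genes were called. The list does not hold Aurkc, Kit, Clgn or Dmrt1, which were called, so its count leaves them out. The list median was 0.03, or 0.17 without KO_vehicle replicate 3.

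Called falls were fewer and smaller than called rises, and 2 of the 16 held in every fit that left out a knockout array. Ntn1, which encodes the guidance cue netrin 1, went from 733, 857 and 1197 to 233, 227 and 357, a change of -1.71 (SE 0.198, limma adjusted p = 5.34e-05), with -1.70, -1.59 and -1.84 in runs 1, 2 and 3. Pla2g7, which encodes the platelet-activating factor acetylhydrolase, went from 459, 417 and 307 to 138, 141 and 58.9, a change of -1.73 (SE 0.203, limma adjusted p = 5.92e-05). These 2 were lower on all RA arrays and were called without the run block too. Nefl, the light neurofilament, went from 3171, 2867 and 1563 to 1156, 1259.7 and 910.2, a change of -1.13 (SE 0.187, limma adjusted p = 0.00355), and lost its call without KO_vehicle replicate 1 or 2 or KO_RA replicate 3 (adjusted p up to 0.0767). The neural factor Otx2 went from 3538, 3644 and 2822 to 1963, 1903 and 1809, a change of -0.80 (SE 0.175, limma adjusted p = 0.0482), and lost its call without KO_vehicle replicate 1, 2 or 3 or KO_RA replicate 1, 2 or 3 (adjusted p up to 0.429). Nefl and Otx2 did not pass without the run block (adjusted p = 0.0814 and 0.423). Ntn1, Nefl and Otx2 were the called members of 34 measured neural and ectoderm genes, where 0.495% of all genes were called. The list median was -0.23, and it was -0.14 without KO_vehicle replicate 3, -0.02 after quantile normalization and 0.02 after centring.

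Growth regulators made up part of the falls. Myc, which drives growth and the cell cycle, went from 967, 998 and 518 to 289, 368 and 430.1, a change of -1.12 (SE 0.225, limma adjusted p = 0.0254). Its fall was -0.26, -1.69 and -1.40 in runs 1, 2 and 3, and the call ended without KO_vehicle replicate 1 or 2 or KO_RA replicate 1 or 2 (adjusted p up to 0.284). Mycn, its relative in stem cells, went from 2544, 1738 and 2144 to 931, 1277 and 1048, a change of -0.97 (SE 0.164, limma adjusted p = 0.00467), and lost its call without KO_vehicle replicate 1 or 3 or KO_RA replicate 1 (adjusted p up to 0.11). No vehicle array of either gene reached down to the RA arrays. Spry4, a feedback inhibitor of FGF signalling, went from 1193, 1317 and 1004 to 549, 546 and 665, a change of -0.98 (SE 0.16, limma adjusted p = 0.00331), and lost its call without KO_vehicle replicate 2 (adjusted p up to 0.0888). Id3, a BMP target that blocks helix-loop-helix factors, went from 819.5, 1118 and 939.5 to 555, 605 and 532, a change of -0.74 (SE 0.148, limma adjusted p = 0.0237), and lost its call without KO_vehicle replicate 1, 2 or 3 or KO_RA replicate 1, 2 or 3 (adjusted p up to 0.23). Without the run block none of these 4 passed (adjusted p = 0.186, 0.0994, 0.0602 and 0.253). The other named falls were Trh, the thyrotropin-releasing hormone gene (-0.95), Mpzl2, an epithelial adhesion protein (-0.93), Hmces, which shields abasic sites in DNA (-0.71), Epas1, a hypoxia-inducible factor (-0.70), Pnp, a purine salvage enzyme (-0.63), and Slc7a7, an amino acid transporter (-0.61), with limma adjusted p values of 0.00461, 0.0173, 0.00876, 0.014, 0.00916 and 0.0137. Trh lost its call without KO_vehicle replicate 2 or 3 or KO_RA replicate 3 (adjusted p up to 0.0665) and Mpzl2 without KO_vehicle replicate 1, 2 or 3 or KO_RA replicate 1, 2 or 3 (adjusted p up to 0.157). Hmces lost it without KO_vehicle replicate 1 or 2 or KO_RA replicate 1 or 2 (adjusted p up to 0.149) and Epas1 without KO_vehicle replicate 1 or 3 or KO_RA replicate 1 or 2 (adjusted p up to 0.223). Calls of Pnp ended without KO_vehicle replicate 1 or 2 or KO_RA replicate 1 or 2 (adjusted p up to 0.174) and those of Slc7a7 without KO_vehicle replicate 1 or 2 or KO_RA replicate 1 or 3 (adjusted p up to 0.157). Dimmer probe sets of Mpzl2 changed by -0.26 and -0.28 and that of Slc7a7 by -0.28, not called (limma adjusted p = 0.791, 0.677 and 0.546). Myc and Mycn were the 2 called members of 32 measured Myc genes, G1 cyclins and CDK inhibitors, where 0.495% of all genes were called. The list median was -0.04.

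A minority of stem cell genes were called, in both directions, and the sign of their median depended on the scaling, being 0.10 with arrays centred on their medians. Of 49 measured pluripotency genes 2 rose and 4 fell, 12.2% against the 0.495% of all genes, and 21 had an unadjusted p under 0.05. The list had a median of -0.15 that was 0.00 in run 1, -0.25 in run 2 and -0.35 in run 3. Lefty1, an inhibitor of Nodal, went from 3736, 3189 and 2497 to 5095, 5487 and 5826, a change of 0.81 (SE 0.128, limma adjusted p = 0.00191) with no overlap (adjusted p without the run block = 0.0753). Tbx3, a T-box factor of stem cells and endoderm, rose by 0.63 (adjusted p = 0.0131 by limma) and lost its call without KO_vehicle replicate 1 or 3 or KO_RA replicate 2 or 3 (adjusted p up to 0.162). Another probe set of Tbx3 rose by 0.99 (adjusted p = 9.51e-05 by limma) and kept its call without KO_vehicle replicate 3 (adjusted p = 0.00251). The remaining probe sets of Tbx3 were dimmer and not called. The falls were Myc, Mycn, Otx2 and Lifr, the receptor of leukaemia inhibitory factor, which changed by -0.59 (adjusted p = 0.0411 by limma) with overlapping arrays and lost its call without KO_vehicle replicate 1, 2 or 3 or KO_RA replicate 1 or 2 (adjusted p up to 0.396). Among the core factors the changes were -0.08 for Pou5f1, -0.22 for Sox2, -0.03 for Nanog and -0.30 for Zfp42, with limma adjusted p values of 0.897, 0.672, 0.969 and 0.572.

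Signalling lists held 1 or 2 calls each, where 0.495% of all genes were called. Of 41 measured Wnt pathway genes Porcn alone was called, the enzyme that attaches the lipid Wnt proteins need for secretion, and it went from 765, 800.0 and 938 to 1600.2, 1921 and 1481, a change of 0.98 (SE 0.137, limma adjusted p = 0.000457) with no overlap. Of 29 genes in the list of FGF and ERK signalling only Spry4 was called. Its list median was -0.23, and -0.10 without KO_vehicle replicate 3, -0.07 after quantile normalization and 0.02 after centring. This list does not hold the ERK phosphatase gene Dusp9, which rose by 1.45 (adjusted p = 5.52e-07 by limma). Of 41 genes of TGF-beta, BMP and Nodal signalling Lefty1 rose and Id3 fell (list median 0.00). Of 21 orphan nuclear receptors Nr6a1, a repressor of pluripotency genes, rose by 0.89 (adjusted p = 0.0309 by limma) and lost its call without KO_vehicle replicate 2 or 3 or KO_RA replicate 2 or 3 (adjusted p up to 0.407). The desmosome gene Dsp rose by 0.78 among 30 epithelial genes and the p53 target Sesn1 by 0.62 among 20 (limma adjusted p = 0.00248 and 0.0188). Dsp lost its call without KO_vehicle replicate 2 (adjusted p up to 0.0539), and Sesn1 lost it without KO_vehicle replicate 1 or 2 or KO_RA replicate 1, 2 or 3 (adjusted p up to 0.203). Dimmer probe sets of Sesn1 changed by 0.37, 0.08 and -0.18 and were not called. In 17 of the 33 lists 0 members were called by limma through the probe set kept for each gene, with 0 to 8 members of each at an unadjusted p under 0.05, among them trophectoderm (20 measured), primitive streak and mesoderm (23), DNA methylation and Polycomb (30), imprinted genes (25), cholesterol synthesis (20), glycolysis and hypoxia (25), the secretory pathway (33), lysosome (27) and mitosis and replication (34). In the list of DNA methylation and Polycomb a dimmer probe set of Dnmt3a, a DNA methyltransferase, was called up (0.65, adjusted p = 0.037 by limma), though not without KO_vehicle replicate 3 (adjusted p = 0.0848). Markers of blood (17), endothelium (14) and fibroblasts with muscle (21) were among these lists, and 9, 10 and 10 of them were above background on any knockout array.

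**Figure D3:**
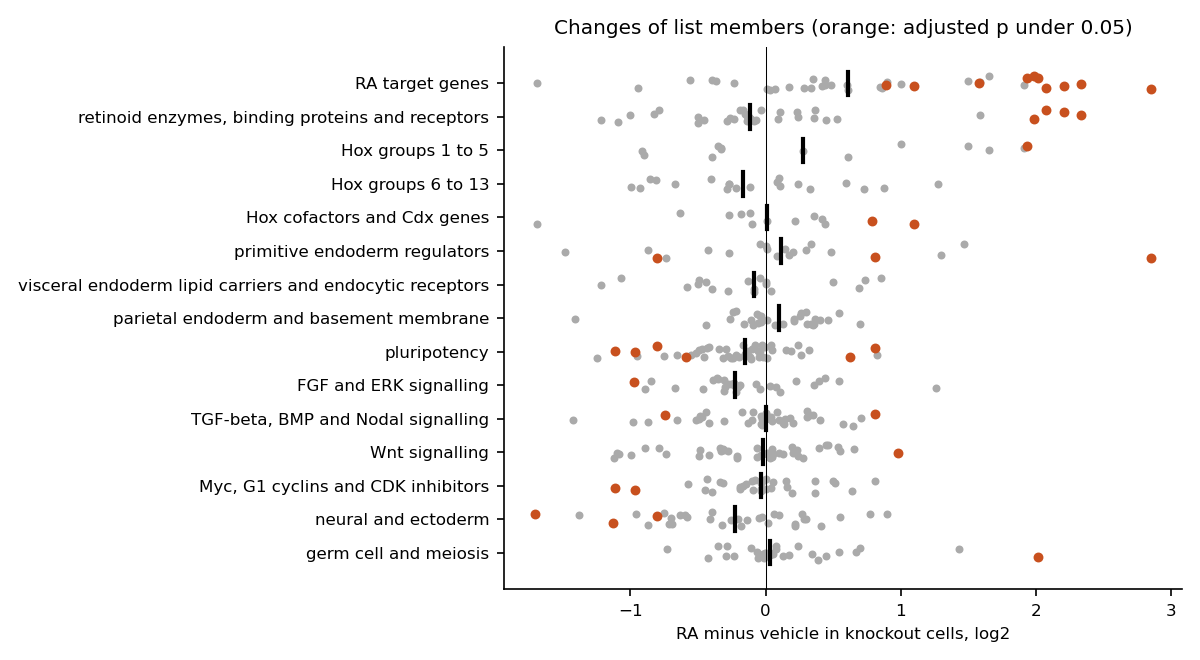
Each point is 1 measured gene of a list, with its change under RA in knockout cells (log2) on the x axis, orange where called, and the black bar is the list median. RA targets have the highest median (0.61) and 10 orange points, all to the right of 0, while most lists have medians near 0 and at most 6 called members.

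Endoderm genes were mostly uncalled, and the letter-coded arrays stood apart in both treatments. Of 20 measured regulators of primitive endoderm Foxa1 and Lefty1 rose and Otx2 fell, where 0.495% of all genes were called. In the same fit 0 of 30 parietal endoderm and basement membrane genes and 0 of 19 visceral endoderm genes were called by limma (4 and 0 at an unadjusted p under 0.05), each gene through its brightest probe set. A dimmer probe set was called up for Serpinh1, a collagen chaperone of the basement membrane list, with a change of 0.91 (adjusted p = 0.0449 by limma), and it was not called without KO_vehicle replicate 3 (adjusted p = 0.411). Lama1, a laminin chain of the basement membrane, gave 2189.7, 2346 and 219 in KO_vehicle and 2645, 2795 and 326 in KO_RA. Dab2, an endocytic adaptor of endoderm, gave 1470.0, 1563 and 124 and 1430.2, 1609.9 and 198. The endocytic receptor gene Cubn gave 1175, 1302 and 56.9 and 1185, 1339.9 and 49. In each of these genes both replicates numbered 3 were far below the other 4 arrays, 8.81-fold for Lama1, 8.84-fold for Dab2 and 18.4-fold for Cubn (means on the scale of signal + 16), whichever the treatment. In the basement membrane list 21 of 30 genes were lower on both letter-coded knockout arrays than on the other 4, against 13.2% of all genes. Lists outside the endoderm had high shares too, with 12 of 20 corepressors and coactivators, 15 of 30 DNA methylation and Polycomb genes and 9 of 20 p53 targets. A difference of at least 5-fold in that direction was seen for 11 of all 18193 genes. The letter code and run 1 cannot be told apart, and neither can a lower share of endoderm-like cells and less RNA per cell.

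Among these genes RA changes were small beside the split for some and closer to it for others. Lama1 changed by 0.54, 0.27 and 0.25 in runs 1, 2 and 3 (limma adjusted p = 0.852). Gata6 and Sox7, transcription factors of primitive endoderm, were higher under RA in every run, and the brightest probe set of neither was called. Gata6 gave 633, 404 and 80.9 and 834, 993 and 444 (1.30, adjusted p = 0.098 by limma) and Sox7 552, 614 and 35 and 938, 924 and 416 (1.47, adjusted p = 0.204 by limma). Their changes were 2.25, 0.39 and 1.26 and 3.08, 0.75 and 0.58 in runs 1, 2 and 3, so the widest came from the low vehicle values of replicate 3. The letter-coded arrays were 3.29-fold lower for Gata6 and 5.07-fold lower for Sox7 than the others. A dimmer probe set of Gata6 gave 325, 291 and 170 in KO_vehicle and 596, 665 and 248 in KO_RA and was called (0.83, adjusted p = 0.0298 by limma), though not without KO_vehicle replicate 3 (adjusted p = 0.176). Of the visceral endoderm markers Afp and Apob were not above background on any knockout array by any of their 7 probe sets, the highest signal being 207 on KO_vehicle replicate 3, whose background was 234.

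**Figure D4:**
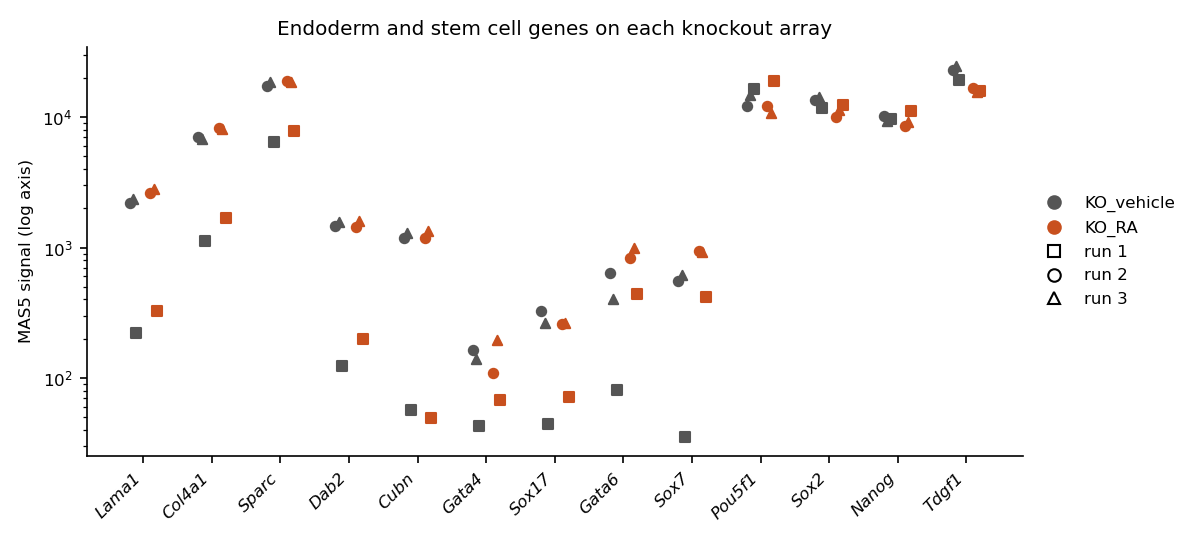
MAS5 signal (log axis) of endoderm and stem cell genes on each knockout array, grey for vehicle and orange for RA, with squares for run 1 (replicate 3, letter-coded), circles for run 2 and triangles for run 3. For Lama1, Dab2 and Cubn the squares lie about 1 order of magnitude below the other markers in both treatments, while for Pou5f1, Sox2 and Nanog the 6 arrays lie together.

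Most rises in knockout cells had the same sign in wild type, and few differed by the test of the difference. Of the 74 genes that rose, 73 had a positive change in wild type and 59 were called up there, where 1.8% of all genes were called up. Of the 16 that fell, 14 had a negative change and 12 were called down in wild type, where 1.56% of genes were. By the test of the knockout change minus the wild-type change, 16 genes passed (0.0879%), 8 up (0.044%) and 8 down (0.044%), and 3 of them were among the 90. Pla2g7 fell in knockout but gave 717, 633 and 534 in WT_vehicle and 750.2, 705 and 573 in WT_RA, a change of 0.10 there, so that the changes differed by -1.84 (SE 0.287, adjusted p = 0.0116). Lifr fell in knockout by -0.59 and rose in wild type by 0.55 (adjusted p = 0.0189 by limma), a difference of -1.13 (SE 0.177, adjusted p = 0.0116). Pcbd1, a pterin dehydratase that also binds the factor HNF1, was near background in knockout vehicle at 66.2, 48.6 and 67.1 and reached 173, 178 and 193, at least 1.59-fold higher (adjusted p = 0.000963 by limma). In wild type Pcbd1 was bright in both treatments, at 901, 819.6 and 1139 and 776, 737 and 921, and the changes differed by the test (adjusted p = 0.036), whose size is not given since knockout vehicle was not above background. Without KO_vehicle replicate 3 none of these 3 differences passed (adjusted p = 0.0728, 0.0728 and 0.0859).

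Among genes not called in knockout, Tdgf1, a Nodal co-receptor, gave 23056, 24908 and 19283 in KO_vehicle and 16868, 15517 and 15960.0 in KO_RA, lower on all RA arrays (-0.47, adjusted p = 0.0964 by limma). Its change in wild type was -1.78 (adjusted p = 2.6e-09 by limma), and the difference was 1.31 (SE 0.159, adjusted p = 0.00188). Gpr50, a relative of melatonin receptors, gave 16.2, 17.4 and 202 and 5.87, 8.04 and 3.21 in knockout, not above background on any array, against 56.2, 41.2 and 31.8 and 1271, 1133 and 805 in wild type, where it rose at least 12.6-fold from vehicle values below background. The changes differed by the test (adjusted p = 0.00761), and no size is given since values below background enter it. Both held without KO_vehicle replicate 3 (adjusted p = 0.0228 and 0.0244), and no other of the 22 called probe sets of this test (0.0488%) did. Dusp6, another ERK phosphatase, changed by 0.54 in knockout and by -0.46 in wild type, a difference of 1.00 (SE 0.184, adjusted p = 0.0414) that did not pass without that array (adjusted p = 0.165). Without the run block 0 of these differences passed in limma's fit, which had 2084 of 45037 probe sets at an unadjusted p under 0.05.

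**Figure D5:**
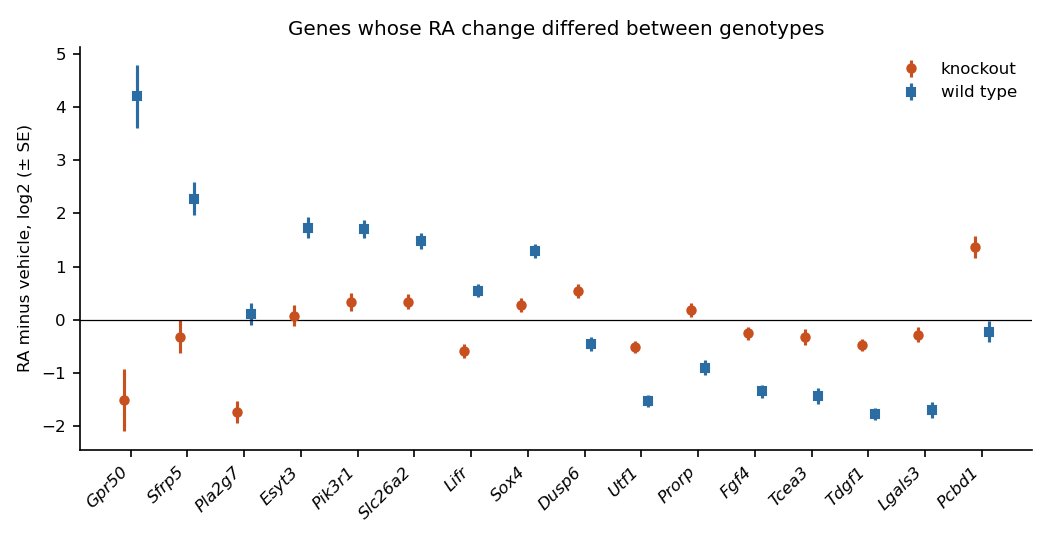
RA change (log2, with the SE of the fit) in knockout (orange) and wild type (blue) for the 16 genes whose changes differed in the blocked fit. Pla2g7 and Pcbd1 changed in knockout but stayed near 0 in wild type. For Gpr50 both knockout groups and wild-type vehicle, and for Pcbd1 knockout vehicle, were not above background, so their fitted values are not sizes of a change.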

How the data were processed

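RNA of wild-type and Rarg-knockout F9 cells was measured on 12 Affymetrix mouse arrays. The values the authors deposited are linear intensity, made with MAS5 per the submitters' processing notes, and each array has a mean of 500 once the top and bottom 2% are removed, so it was scaled to that mean. The MAS5 version is not given in the sources used here. Deposited hybridization records of each array (kind other, text) were used only for run, chip lot and wait before the scan.

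After 64 control probe sets were left out, 45037 were analysed as log2(signal + 16). The tool was limma 3.58.1, run in R 4.3.3 (lmFit, eBayes with an intensity trend), with 4 groups, the run as a fixed block, 6 residual degrees of freedom and Benjamini-Hochberg adjustment over all probe sets at 0.05. The number of arrays limits the precision. Of the probe sets, 34945 had 1 gene symbol, 932 several and 9160 none in the 2016 platform annotation, and for each of 18193 genes the brightest probe set by mean log2 signal was used. The background of each array was the 95th percentile of signal over 84 probe sets for chemosensory receptors (olfactory, vomeronasal, taste). For a gene below it on every array of a group the fold is a lower bound, the bright group's mean over the higher of level and own signal.

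Named were Rarg and the markers, up to 15 largest rises and falls without overlap, called list members, retinoid genes, genes with a called difference, calls kept without any 1 knockout array, and the 5 brightest calls. Others are said to be chosen after their values were seen. Of these genes the text prints a part, and no other probe set of a called gene was called in the opposite direction. Of 854 symbols in 33 lists 785 were matched, 2 through an older name. The members and lists were chosen with earlier results of these data known. The fit was also run on simulated arrays with independent noise drawn from its own fitted spread. That noise lacks the raised dim signal of KO_vehicle replicate 3, so the run cannot show how the fit handles this array. Alternatives were other blocks, pseudocounts, normalizations, filters, weights and thresholds, and each array left out.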

Additional observations from a re-analysis of the deposited data

Results flagged for a closer look

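For 16 genes the RA change in knockout differed from that in wild type by limma's test of the difference, with the run as a block. The difference, knockout change minus wild-type change on the log2 scale, was -5.71 for Gpr50, -2.59 for Sfrp5, a secreted Wnt antagonist, -1.84 for Pla2g7 and -1.65 for Esyt3. It was -1.36 for Pik3r1, a regulatory subunit of PI3 kinase, -1.14 for the sulfate transporter Slc26a2, -1.13 for Lifr and -1.02 for Sox4. For Gpr50 the fitted value is no size of a change, since both knockout groups and wild-type vehicle were not above background, and its knockout part was -3.50 in run 1 against -0.56 and -0.47 in runs 2 and 3. The same holds for Pcbd1, whose knockout vehicle arrays were not above background. Upward differences were 1.59 for Pcbd1, 1.42 for the lectin Lgals3, 1.31 for Tdgf1, 1.11 for Tcea3 and 1.09 for the growth factor Fgf4. They were 1.08 for Prorp, 1.02 for the stem cell gene Utf1 and 1.00 for Dusp6. Of the 16, Gpr50 and Tdgf1 passed without KO_vehicle replicate 3. Groups of 3 arrays were too small to test gene by gene for single outlying arrays. KO_vehicle replicate 3 stood apart by its median signal, and each array was left out in turn.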

How the results depend on the processing

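The count of called probe sets in knockout cells was 136. It was 36 without the run block, 58 with the run as a random block, 33 with the chip lot as a block, 71 with arrays centred on their medians, 4 without the intensity trend, 299 from the knockout arrays alone, 79 at an adjusted p under 0.01, 68 with a log2 change of at least 1 and 43 without the block and KO_vehicle replicate 3. Without run 1, an alternative chosen after seeing the data, it was 313. With each array left out in turn it was 74 to 239. Pseudocounts of 1 and 64, quantile normalization, array weights, the background filter and 1 probe set per gene kept it within 1.5 times. The count for the difference between genotypes was 22. It was 0 without the block (2084 at an unadjusted p under 0.05), 2 with a random block, 1 with the lot as a block, 7 after quantile normalization, 1 after centring, 11 above background, 0 without the trend (2880 unadjusted), 50 with array weights, 4 at 0.01 and 1 without the block and KO_vehicle replicate 3. Among alternatives chosen after seeing the data it was 12 with array weights and 2 with quantile normalization, both without KO_vehicle replicate 3, and 11 without run 1. With each array left out it was 2 to 18. No called gene named changed direction under an alternative, but many lost their call. Of 57 called genes followed under the alternatives, 2 kept their call without the intensity trend and 20 with the chip lot as a block. The call was kept by 22 without the run block, 32 after centring, 51 after quantile normalization and 57 with array weights. KO_vehicle replicates 1 and 2 and KO_RA replicate 1 were on chip lot 2, and the other knockout arrays on lot 1. The pluripotency median of -0.15 became 0.10 after centring, which raised the median of all genes to 0.20, and was -0.35 in run 3. Among uncalled genes the direction turned as follows. After centring the changes were 0.22 for Nanog, 0.17 for Pou5f1, 0.083 for Rxrb and 0.032 for Sox2. With each array left out they ranged over -0.14 to 0.056 for Nanog, -0.21 to 0.064 for Pou5f1, -0.30 to 0.0092 for Rxrb, -0.032 to 0.81 for Cyp26b1 and -0.29 to 0.87 for Lama1. Without KO_vehicle replicate 3 Lama1 also gave -0.74 without the block, -0.13 with array weights and -0.19 after quantile normalization, and Pou5f1 gave 0.014 without the block. The cause of these shifts was not tested. No paired analysis by replicate number was possible because the titles carry no numbers shared between groups, and numbers given in deposition order coincide with the run, so a replicate block is the fit reported. Its correlation within runs was 0.0911. There is no read depth, and dim genes near background are the least certain.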

Other observations

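Other called rises, chosen after their values were seen, came from chromatin, signalling and stem cell genes. Zmym3, a zinc finger protein of chromatin complexes, gave 807, 711 and 399 in KO_vehicle and 1903, 1736 and 1288 in KO_RA, a change of 1.38 (SE 0.166, limma adjusted p = 8.17e-05). Zmiz1, a coactivator, gave 1165, 1251 and 609 and 2409, 2391 and 1470.0, a change of 1.07 (SE 0.147, limma adjusted p = 0.000387). Nxn, a redox protein that binds the Wnt mediator Dvl, gave 819, 1083 and 883 and 2533, 2541 and 1391, a change of 1.16 (SE 0.157, limma adjusted p = 0.000329). These 3 had no overlap and kept their call in every fit that left out a knockout array, and Zmiz1 did not pass without the run block (adjusted p = 0.186). Alpl, the alkaline phosphatase that marks stem cells, gave 207, 228 and 444 and 545, 542 and 634, a change of 1.01 (SE 0.189, limma adjusted p = 0.0135), and lost its call without KO_vehicle replicate 1 or 2 or KO_RA replicate 1, 2 or 3 (adjusted p up to 0.143). Crxos, a homeobox gene of early embryos, gave 238, 254 and 505 and 732, 699.7 and 685, a change of 1.13 (SE 0.198, limma adjusted p = 0.00682), and lost its call without KO_vehicle replicate 1 or 2 or KO_RA replicate 1 or 2 (adjusted p up to 0.115). For both, the vehicle value of replicate 3 was nearest to the RA arrays, and the changes in run 1 were 0.50 and 0.43. Hhip, an inhibitor of hedgehog signalling, changed by 0.84 (SE 0.14, limma adjusted p = 0.00368) although its arrays overlapped, since both arrays of run 1 were lower than the others of their group, and lost its call without KO_vehicle replicate 2 or KO_RA replicate 2 (adjusted p up to 0.0613).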
